A study of Mus musculus with 4 samples.

Results

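NR1D1 peaks were examined at 10 genes that build or remodel the extracellular matrix of synthetic smooth muscle: Fn1, Thbs1, Mmp2, Mmp14, Timp3, Vcan, Mgp, Eln, Fbn1 and Lox. They are 10 of the 21887 protein-coding genes of the RefSeq table. A peak belonged to a gene when it overlapped the gene's RefSeq span on mm10 or the 10 kb on either side of it. By this rule the genes held 4 of 8816 peaks of the vasostatin-2 list and 6 of 7377 peaks of the PBS list. The genes were chosen by hand with the peaks of these libraries already known, and their peaks were selected on position, so the values below describe the 2 lists and support no test.

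NR1D1 was profiled by CUT&Tag, in which an antibody directs the transposase Tn5 to chromatin so that the DNA beside the bound protein is released and sequenced. The cells were primary wild-type (WT) smooth muscle cells cultured from mouse aorta in medium with 10% serum. One NR1D1 library came from cells exposed to vasostatin-2, a chromogranin A peptide, for 24 h, and 1 from cells exposed to PBS for the same time. The labels also name an IgG library of each treatment, which was not used here. Since each treatment has 1 NR1D1 library, there is no replicate error, and every difference below is a difference between 2 libraries of the same batch label. All intervals are 95% intervals and cover counting error only.

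Smooth muscle cells of the arterial wall can leave their contractile state for a synthetic one, in which they divide, migrate and lay down matrix. Fibronectin and versican form a provisional matrix that cells can move through, metalloproteinases cut matrix proteins, and tissue inhibitors restrain them, while elastin, fibrillin and lysyl oxidase build the elastic fibres that let an artery recoil. NR1D1, also called REV-ERB alpha, is a nuclear receptor of the circadian clock that represses transcription through NCoR and HDAC3. It binds DNA at elements built on the letters AGGTCA, or through other transcription factors already on the DNA.

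Of the 10 genes 2 had peaks in both lists, 2 in the vasostatin-2 list alone, 3 in the PBS list alone and 3 in neither. Over all protein-coding genes 17.5% had peaks in both lists, 10.5% in the vasostatin-2 list alone, 12.0% in the PBS list alone and 60% in neither. A peak was thus present at 4 of 10 in the vasostatin-2 list, against 28.0% of all protein-coding genes, and at 5 of 10 in the PBS list, against 29.5%. Fn1 was the single gene with overlapping peaks in both lists. Timp3 had peaks in both lists, at different places. Vcan and Mgp had a peak in the vasostatin-2 list alone, Thbs1, Mmp2 and Mmp14 in the PBS list alone, and Eln, Fbn1 and Lox had none in either list.

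**Figure D1:**
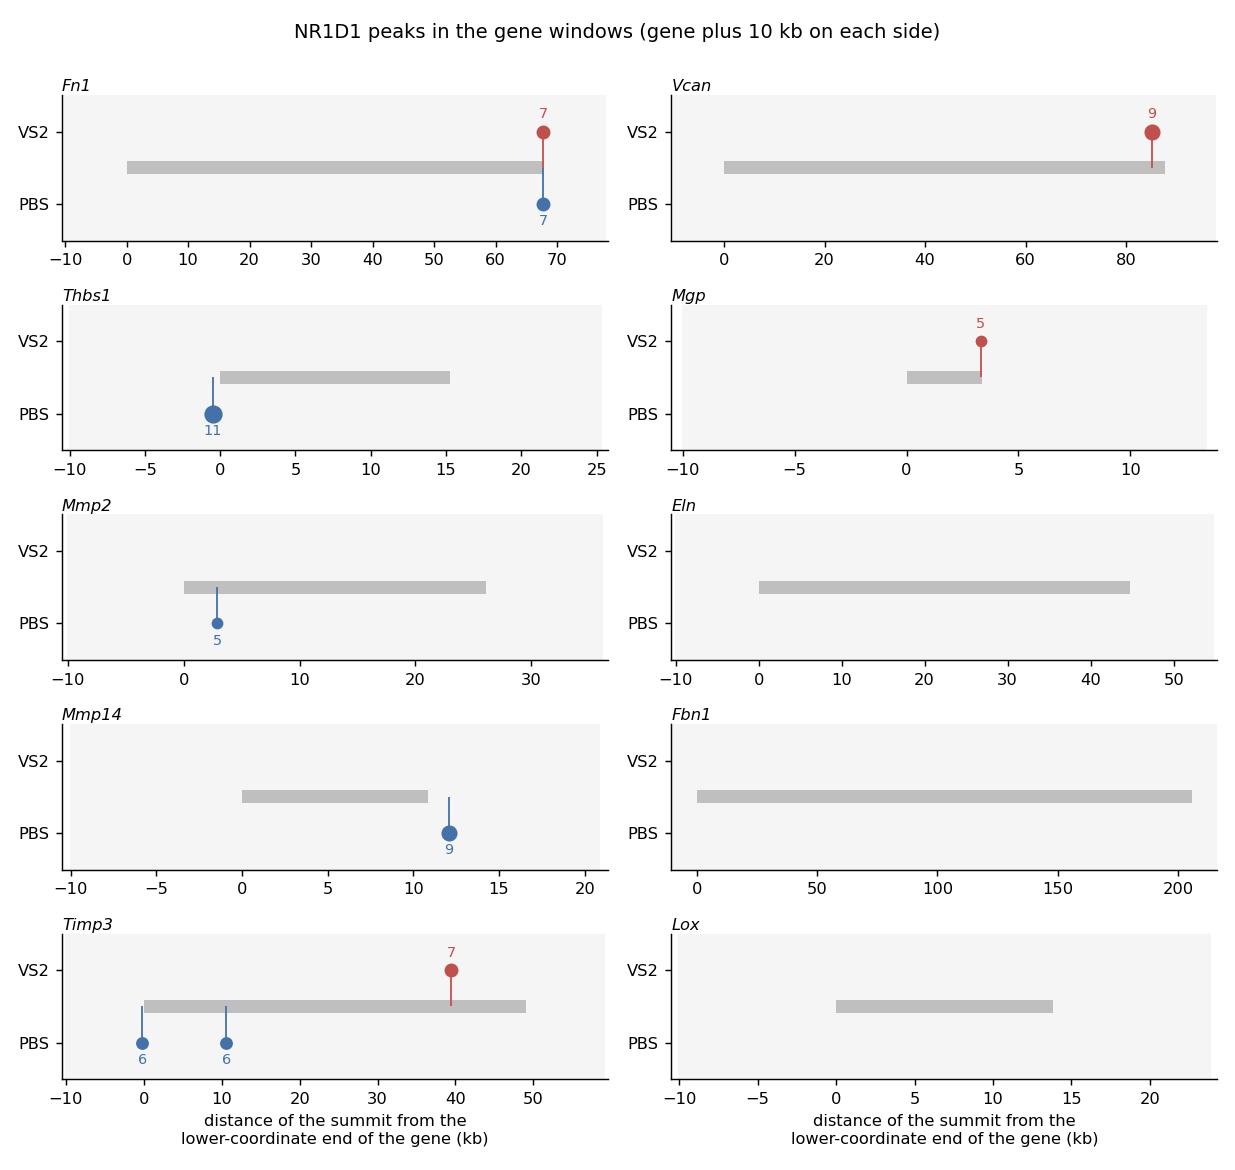
Position of the summits of NR1D1 peaks in the windows of the 10 genes. The horizontal axis of each panel is the distance in kb from the gene end with the lower coordinate, the grey bar is the gene, and the pale area is the gene plus 10 kb on each side. Red points above the gene are peaks of the vasostatin-2 library (VS2) and blue points below it peaks of the PBS library, with the number of fragments at the summit beside them and point size growing with that number. The summits coincide at Fn1, and Eln, Fbn1 and Lox are empty.

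The sequence under a peak was available at 2 places, both for peaks of the PBS list, and is shown because these peaks reached into the 250 bases before an annotated start. The Timp3 peak (chr10:86300131-86300420) covered all 250 bases before the Timp3 start. The Thbs1 peak (chr2:118111314-118111877) reached from the lower-coordinate end of Thbs1 back into the 250 bases before the start of Gm13986, a long noncoding RNA gene on the minus strand whose start lies beside Thbs1, and covered positions 1 to 139 of them. Both are RefSeq sequences of GRCm38.p6, the assembly of mm10, printed 5′ to 3′ on the strand of the gene named, and the capitals mark the 50 bases on each side of the summit together with the summit base.
Timp3, chr10:86300162-86300411, plus strand: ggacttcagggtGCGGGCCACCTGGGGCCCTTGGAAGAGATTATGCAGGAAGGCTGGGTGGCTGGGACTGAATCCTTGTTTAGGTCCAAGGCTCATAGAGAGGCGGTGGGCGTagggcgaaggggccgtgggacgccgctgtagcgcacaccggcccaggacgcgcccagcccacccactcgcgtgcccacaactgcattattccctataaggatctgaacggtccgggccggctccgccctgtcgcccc
Gm13986 beside Thbs1, chr2:118111203-118111452, minus strand: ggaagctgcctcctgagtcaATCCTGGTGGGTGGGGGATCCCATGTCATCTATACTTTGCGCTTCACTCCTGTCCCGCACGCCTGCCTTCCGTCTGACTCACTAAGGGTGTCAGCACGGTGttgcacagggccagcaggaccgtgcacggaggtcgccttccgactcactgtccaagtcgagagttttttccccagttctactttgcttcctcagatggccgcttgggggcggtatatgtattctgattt

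In the Timp3 sequence the summit fell on position 63, and 65.6% of the bases were G or C. In the sequence beside Thbs1 it fell on position 71, and 56.4% were G or C. Over all RefSeq promoter windows the median for the same 250 bases was 52.4%. The RefSeq table held promoter windows of 300 bases (250 before the start and 50 from it) for 4 of the 10 genes, namely Timp3, Mmp14, Vcan and Fbn1. They and the window of Gm13986 were searched on both strands for AGGTCA, for TAGGTCA (the core of the ROR element, which contains the first), for a direct repeat of AGGTCA with 2 bases between the copies, for the AP-1 site TGANTCA and for the E-box CACGTG. None of these letters occurred in the windows of the 4 member genes. Of those windows only that of Timp3 was overlapped by a peak. For Mmp14, Vcan and Fbn1 the search covered no sequence under a peak. The window beside Thbs1 held the AP-1 letters at positions 14 to 20 and 95 to 101, the second of them in the capitals, and none of the other motifs. Of all 32851 promoter windows, 16.3% held AGGTCA, 2.61% TAGGTCA, 0.00913% the direct repeat, 7.81% the AP-1 letters and 7.15% the E-box. A match or its absence describes these letters alone.

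Fn1 encodes fibronectin, the glycoprotein that cells hold through integrins. Its peak in the vasostatin-2 list lay on chromosome 1 from 71653174 to 71653461, with 7 fragments at the summit and a fold enrichment of 5.67 over the local background. Its peak in the PBS list lay from 71652831 to 71653259, with 7 fragments and a fold enrichment of 5.55. Fragments at the summit were recovered from the authors' fold and p for each peak. Fold enrichment is the authors' value, a ratio taken after 1 was added to both fragments and background. The summits were on the same base, 71653212, inside the gene and 68 bp from its upper-coordinate end, and the number of fragments was equal.

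The Fn1 peaks differed in extent. From the common summit the vasostatin-2 peak reached past the end of Fn1 into Apol7d, a long noncoding RNA gene, while the PBS peak reached into the body of Fn1. They overlapped by 86 bp of the 631 bp that they cover together, or 13.6%, where the median over the 2649 shared vasostatin-2 peaks was 63.5% and 2.87% of them had a smaller overlapping share. Summits on the same base occurred at 3.28% of those shared peaks, and the median distance between summits was 79 bp. The authors' -log10 q of the Fn1 peak was 4.08 in the vasostatin-2 list and 3.97 in the PBS list. The ratio of Fn1 fragments, vasostatin-2 over PBS, was 1.0 with an exact interval of 0.299 to 3.34. Divided by 1.32, the depth of the vasostatin-2 library relative to PBS as inferred from the peak values, it was 0.758, with an interval of 0.227 to 2.53. With 1 library per treatment and 7 fragments in each, a difference between treatments at Fn1 could not be tested.

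Thbs1 encodes thrombospondin 1, a matrix glycoprotein that can activate latent TGF-beta. It had no peak in the vasostatin-2 list, and 1 in the PBS list, of 564 bp on chromosome 2, with 11 fragments at the summit and 5.42-fold enrichment. That was the largest number of fragments among the 10 peaks of these genes. The summit lay outside Thbs1, 494 bp below its lower-coordinate end and 180 bp above the start of Gm13986. The background around it was also the highest of the 10 peaks, with 1.21 fragments expected at a position, against 0.402 to 0.803 at the other 9. The nearest vasostatin-2 peak lay 20.2 kb from Thbs1, inside Gm13986, with 8 fragments.

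Mmp2 encodes a secreted gelatinase and had no vasostatin-2 peak. In the PBS list it had 1 peak inside the gene, on chromosome 8 from 92830091 to 92830316, with 5 fragments, 3.98-fold enrichment and a summit 2914 bp from the lower-coordinate end. Its -log10 q of 1.71 was close to the smallest value in that list, 1.32. Mmp14 encodes a membrane-bound metalloproteinase that activates pro-MMP2 and likewise had no vasostatin-2 peak. Its PBS peak (chromosome 14, 54443428 to 54443834) had 9 fragments and 5.55-fold enrichment. Mmp14 lies on the plus strand, and the summit was past the gene, 1209 bp beyond its last base and 12067 bp from its start, overlapping no annotated gene.

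Timp3 encodes the inhibitor of metalloproteinases that stays bound to the matrix. The vasostatin-2 list had 1 Timp3 peak, on chromosome 10 from 86339684 to 86340016, with 7 fragments and 4.91-fold enrichment, 39432 bp downstream of the Timp3 start. The PBS list had 2. The first covered the start, with its summit 188 bp upstream of it, 6 fragments and 4.20-fold enrichment. The second, from 86310972 to 86311178, had its summit 10564 bp downstream of the start, 6 fragments and 3.92-fold enrichment. The closest pair of summits of the 2 lists was 28868 bp apart, so that Timp3 counted as a gene with peaks in both lists without a common place. All 3 peaks also lie inside Syn3, a synapsin gene that spans Timp3, and cannot be assigned to one of them by position.

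Vcan encodes versican, a large chondroitin sulphate proteoglycan. Its vasostatin-2 peak, on chromosome 13 from 89740386 to 89740976, was the widest of the 10 at 591 bp and had the highest fold, 6.07, with 9 fragments and a -log10 q of 4.77. Vcan is on the minus strand. The summit lay inside the gene, 2106 bp downstream of the start given by the promoter table, and the peak also lies in the long noncoding RNA gene Gm4117. There was no Vcan peak in the PBS list, whose nearest peak was 31.2 kb from the gene on the side of Hapln1, with 8 fragments. Hapln1 encodes a link protein that ties versican to hyaluronan.

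Mgp encodes matrix Gla protein, an inhibitor of arterial calcification, and is the shortest of the 10 genes at 3389 bp. Its vasostatin-2 peak (chromosome 6, 136875669 to 136875865) was 197 bp wide, with 5 fragments, 4.28-fold enrichment and a -log10 q of 2.18. The summit lay inside the gene, 61 bp from the upper-coordinate end. The PBS list had no Mgp peak, and its nearest one was 44.0 kb away, near an end of Wbp11.

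Eln, Fbn1 and Lox, which encode elastin, fibrillin 1 and lysyl oxidase, the enzyme that crosslinks elastin and collagen, had no peak in either list. They have windows of 64.8, 225.9 and 33.8 kb, and that of Fbn1 is the longest of the 10. The first peak outside the Eln window was present in both lists at nearly the same coordinates, 13.4 kb from Eln and inside Limk1, a LIM kinase gene, with 12 fragments in the vasostatin-2 list and 12 in the PBS list. It had more fragments than any peak inside the 10 windows. It stands just outside the 10 kb limit of the rule. For Fbn1 the nearest peaks were 47.5 kb away in the vasostatin-2 list, inside Cep152, and 52.7 kb away in the PBS list, inside Dut. For Lox they were 108.1 kb away in the vasostatin-2 list and 459.7 kb away in the PBS list.

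**Figure D2:**
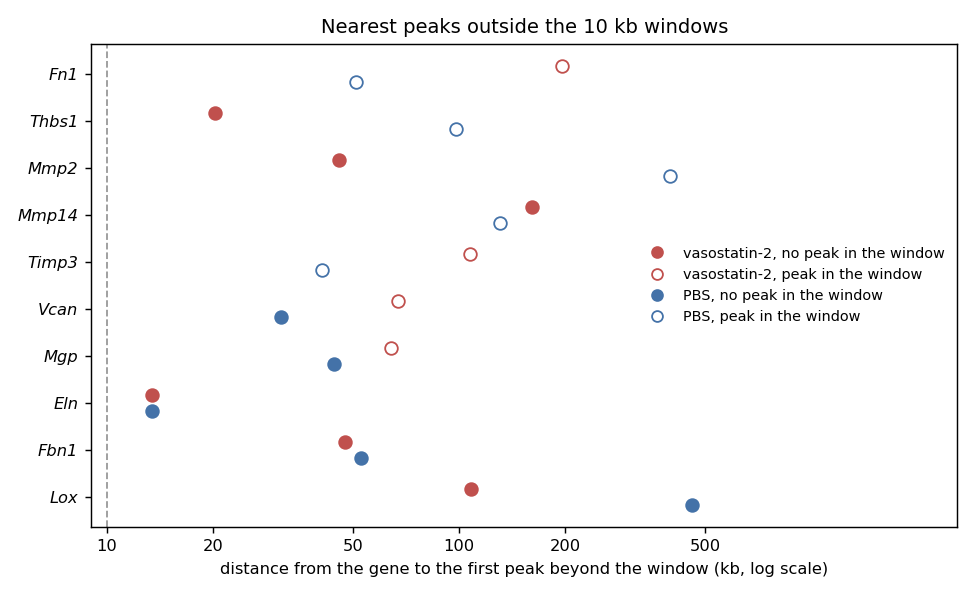
Distance from each gene to the first peak beyond its 10 kb window (log scale, dashed line at 10 kb). Red points are the vasostatin-2 list and blue points the PBS list. Filled points belong to genes with no peak inside the window in that list and open points to genes with one. The points nearest to the line are those of Eln, 13.4 kb away in both lists, and the farthest is that of Lox in the PBS list, at 459.7 kb.

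Among the genes with peaks inside the windows, the first peak outside lay 64.1 kb (Mgp) to 196.4 kb (Fn1) away in the vasostatin-2 list and 40.8 kb (Timp3) to 396.8 kb (Mmp2) away in the PBS list. Of the peaks outside the windows the nearest was therefore that of Eln, and no other gene had its first outside peak within 20 kb. No peak lay just inside the limit: the peak inside a window that was farthest from its gene, that of Mmp14, had its edge 0.972 kb away.

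Counted over genes, 4 of 10 had a peak in the vasostatin-2 list (40.0%), where 28.0% of all protein-coding genes had one. In the PBS list 5 of 10 did (50%), against 29.5% of all protein-coding genes. Windows of the 10 genes were longer than usual, with a median of 55.5 kb against 37.2 kb over all protein-coding genes. Of all 21887 genes, 17193 had windows between the shortest and the longest of the 10, so this range does not match them for length. Among those 17193 genes the shares were 29.9% in the vasostatin-2 list and 32.0% in the PBS list, and 56.7% had no peak in either. Nothing is read from these shares about the 10 genes, which were chosen with their peaks known. A peak in both lists occurred at 2 of 10 genes and at 17.5% of all genes, and an overlapping pair at 1 of 10 and at 13.5%.

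Per length of window the 10 genes held 0.552 peaks per 100 kb in the vasostatin-2 list (exact Poisson interval 0.150 to 1.41) and 0.828 in the PBS list (0.304 to 1.80). The windows of all protein-coding genes held 0.451 and 0.430 peaks per 100 kb, in the vasostatin-2 and the PBS list. Both values lie inside the intervals of the 10 genes, which rest on 4 and 6 peaks and are wide. As the genes were chosen with their peaks known, nothing is read from this.

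**Figure D3:**
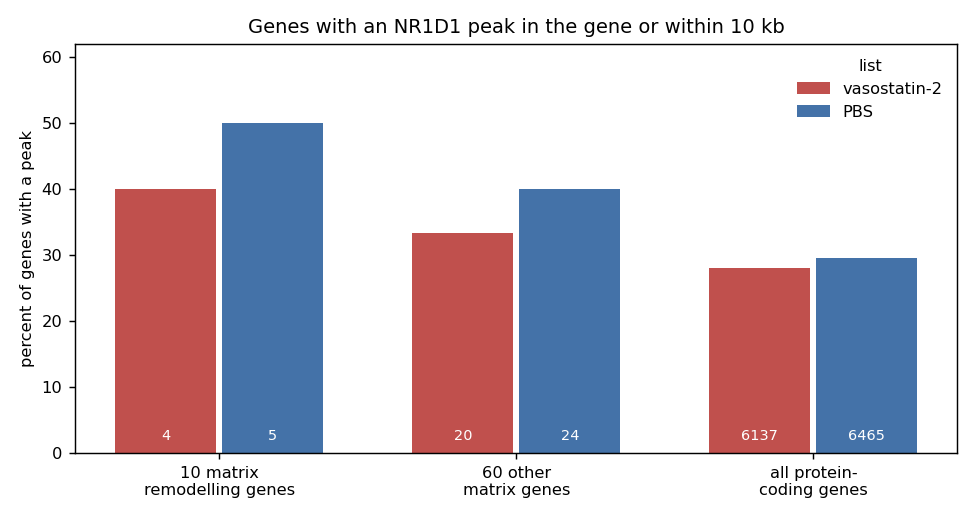
Percent of genes with an NR1D1 peak in the gene or within 10 kb, for the 10 matrix remodelling genes, 60 other matrix genes and all protein-coding genes. Red bars are the vasostatin-2 list and blue bars the PBS list, and the white numbers are genes with a peak. The bars of the 10 genes stand at 40.0% and 50%, and those of all protein-coding genes at 28.0% and 29.5%.

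The peaks at these genes had 5 to 9 fragments at the summit in the vasostatin-2 list, with a median of 7, and 5 to 11 in the PBS list, with a median of 6.5. Over the whole lists the medians were 7 and 8, in the same order. The median fold of the 4 vasostatin-2 peaks was 5.29, against 5.07 over that list, and that of the 6 PBS peaks was 4.81, against 5.33. By fold enrichment they ranked from percentile 20.9 to percentile 73.7 of the vasostatin-2 list (Mgp lowest, Vcan highest) and from percentile 11.3 to percentile 56.2 of the PBS list (the Timp3 peak inside the gene lowest, Fn1 highest). None of the 10 peaks had a q under 1e-05, where 26.3% of all vasostatin-2 peaks and 35.6% of all PBS peaks did. Vcan came nearest, with a -log10 q of 4.77, and in the PBS list Thbs1, with 4.44.

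The share of peaks with a counterpart in the other list varied with the number of fragments. In the vasostatin-2 list 1 of 4 peaks had one, where 20.5% of all its peaks with 5 to 9 fragments and 30% of all its peaks did. In the PBS list 1 of 6 had one, where 26.5% of all its peaks with 5 to 11 fragments and 35.6% of all its peaks did. Of vasostatin-2 peaks with 5 fragments, as at Mgp, 7.22% had a counterpart, with 7 fragments, as at Fn1 and Timp3, 25.8%, and with 9, as at Vcan, 37.4%. Of PBS peaks the shares were 10.2% with 5 fragments, as at Mmp2, 17.4% with 6, as at Timp3, 23.7% with 7, as at Fn1, 38.4% with 9, as at Mmp14, and 49.6% with 11, as at Thbs1. At each of these numbers of fragments more than 50% of peaks had no counterpart.

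**Figure D4:**
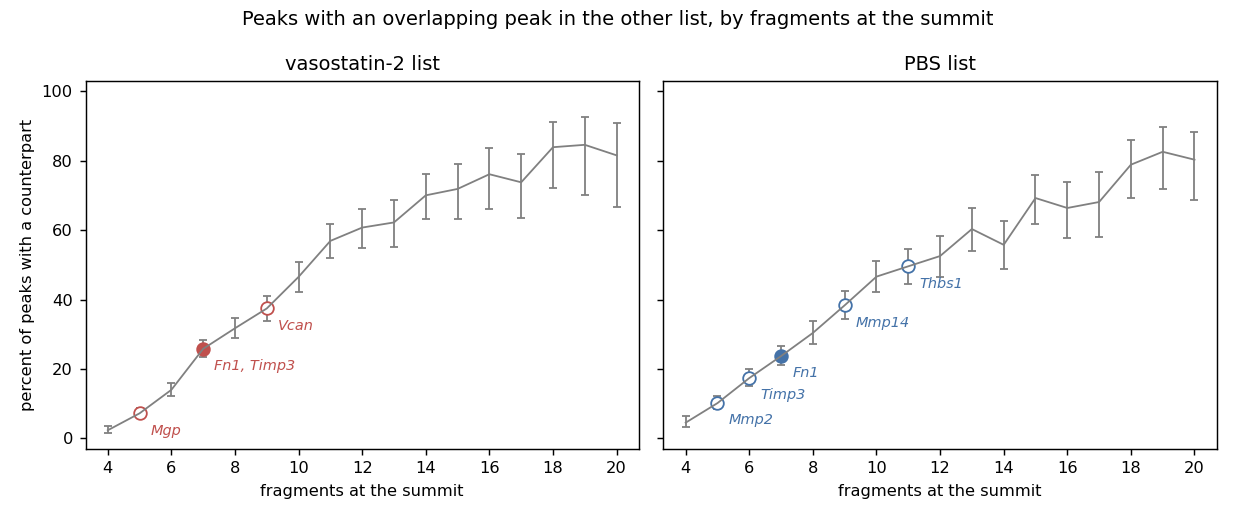
Percent of all peaks of a list that overlap a peak of the other list, against the number of fragments at the summit, for the vasostatin-2 list (left) and the PBS list (right). Lines join the shares and bars are 95% Wilson intervals. Circles mark the fragment numbers of the peaks at the named genes, filled where a peak at one of them had a counterpart (Fn1) and open where none had, with Timp3 sharing the filled circle at 7 fragments on the left although its own peak had none. The shares at the circles run from 7.22% to 37.4% on the left and from 10.2% to 49.6% on the right.

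The fragments that a call in the other list would have taken can be reckoned from the same formula. At the lowest background of either library a summit needed 4 fragments to reach the smallest listed -log10 p. With the background of the PBS peak scaled to the vasostatin-2 library by the ratio of the lowest backgrounds, 1.23, a call there would have needed 8 fragments at the Thbs1 place, where the PBS library had 11. By the same reckoning it would have needed 5 at Mmp2, where PBS had 5, 6 at Mmp14, where PBS had 9, and 6 at both Timp3 places, where PBS had 6. In the PBS library a call would have needed 5 fragments at Vcan, where the vasostatin-2 library had 9, 5 at Timp3, where it had 7, and 4 at Mgp, where it had 5. Only the background was scaled here, and the fragments are those of the library with the peak. The vasostatin-2 library was inferred to be 1.32 times as deep as PBS. The numbers needed and held are thus not directly comparable where they are close, as at Mmp2, Mgp and both PBS places of Timp3. The fragments of the other library at these places are not in the lists, and a peak in 1 list is not shown to be absent from the other library.

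Of the 10 peaks 5 had their summit close to a gene end. In the vasostatin-2 list 2 of 4 summits, at Fn1 and Mgp, lay within 1 kb of an end of an annotated gene, where 25% of the list did. In the PBS list 3 of 6 did, at Fn1, Thbs1 and the start of Timp3, where 40.2% of the list did. The 4 vasostatin-2 summits were all inside the member gene. Of the 6 PBS summits 3 were inside it, at Fn1, Mmp2 and Timp3, and those of Thbs1, Mmp14 and the Timp3 start region were outside. Over all pairs of a protein-coding gene and a peak in its window the summit was inside that gene in 54.1% for the vasostatin-2 list and 47.7% for the PBS list.

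A further list of 60 matrix genes was set beside the 10, chosen with earlier results of these data known. A peak was found at 20 of 60 in the vasostatin-2 list (33.3%) and at 24 of 60 in the PBS list (40.0%). Over all protein-coding genes the shares were 28.0% and 29.5%. Their 23 vasostatin-2 peaks had a median of 9 fragments, against 7 over that list. Of these 13 had a counterpart (56.5%), against 30% of that list. Their 33 PBS peaks had a median of 10 fragments, against 8 over that list. Of these 13 had a counterpart (39.4%), against 35.6% of that list. As the share with a counterpart varied with the number of fragments, it is not read as a trait of these genes. Of 60 genes 30 had no peak in either list (50%), against 60% of all protein-coding genes. Among these 30 were the collagenase gene Mmp13, the gelatinase gene Mmp9 and 4 relatives of Lox, namely Loxl1, Loxl2, Loxl3 and Loxl4. As most protein-coding genes had no peak, its absence there is not read as a trait of those families.

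An overlapping pair of peaks was found at 12 of these genes, or 20%, against the 13.5% of all protein-coding genes. Inside the gene were the pairs of Has1, a hyaluronan synthase (16 fragments in the vasostatin-2 list and 16 in the PBS list, also inside Spaca6), Ltbp3, which binds latent TGF-beta (14 and 15), and Emilin1, an elastic fibre glycoprotein (9 and 13). Hapln1 had 10 and 5 fragments in the same order, Matn2, a matrilin, 8 and 12, and Adamts12, a secreted metalloproteinase, 5 and 5. The Adamts12 peaks overlapped by only 23 bp, with summits 139 bp apart. Adamts12 had another peak in the vasostatin-2 list without a counterpart, 981 bp outside the gene, with 17 fragments and 10.3-fold enrichment, the highest fold of the vasostatin-2 peaks at the 60 genes. Sparc, which encodes a collagen-binding glycoprotein, had 8 and 12 fragments at summits 202 and 157 bp from its upper-coordinate end, inside the gene. Tnxb, a tenascin gene, had one pair inside the gene (13 and 13) and another outside it (13 and 15).

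For the remaining genes the pair lay outside the matrix gene. At Bcan, which encodes the proteoglycan brevican, the summits were 442 and 413 bp from the gene, with 9 and 11 fragments. At Timp2, another inhibitor of metalloproteinases, they were 5968 and 5775 bp away, with 14 and 18. The pairs counted for Mfap4 (17 and 30 fragments) and Efemp2 (15 and 23) overlapped other genes, Mapk7 and Mus81. The Efemp2 summits were 748 bp apart, where the median over all shared vasostatin-2 peaks was 79 bp.

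Among the genes of that list with no overlapping pair, the peaks of highest fold were as follows. In the vasostatin-2 list they were those of Ltbp2 (5.99-fold), Adamts2 (5.59-fold), the proteoglycan gene Bgn (5.43-fold) and the inhibitor gene Timp1 (4.34-fold). The summits of Ltbp2 and Adamts2 lay inside the gene, and that of Bgn 6812 bp outside it. That of Timp1 lay 8043 bp outside the gene, in a peak of 5 fragments that overlapped Syn1. Adamts2 also had PBS peaks at other places. In the PBS list they were those of the aggrecanase gene Adamts4 (9.41-fold, 18 fragments, 909 bp from the gene), the fibulin gene Fbln2 (6.95-fold), the fibrillin gene Fbn2 (6.85-fold) and Adamts1 (6.50-fold). Fbn2 therefore had a PBS peak, of 8 fragments, where Fbn1 had none in either list.

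For orientation, Acta2 had no peak within its window in either list, and Myh11, the smooth muscle myosin gene, had 1 in each, with 8 fragments in the vasostatin-2 list and 12 in the PBS list, 28917 bp apart. Of 6 smooth muscle genes 3 had a vasostatin-2 peak and 4 a PBS peak, and of 5 endothelial genes 2 and 1. In the same order, of 5 leukocyte genes 1 and 2 had one, and of 5 fibroblast genes 0 and 0. Over all protein-coding genes the shares were 28.0% and 29.5%. Overlapping pairs were found at Lmod1 and Tagln of the smooth muscle genes and at Cd68 of the leukocyte genes, against 13.5% of all protein-coding genes. Lists of 5 or 6 genes are too small to be compared with each other. A peak of NR1D1 does not measure the expression of a gene, so the identity of the cells could not be checked from these lists.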

How the data were processed

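Peak lists of 2 NR1D1 CUT&Tag libraries were used, 1 per treatment. Trimmomatic 0.39, BWA 0.7.17, MACS2 2.2.7.1 and build mm10 are named in the submitters' processing notes, without roles or settings. No header names the columns, which were read in the standard order of that caller's peak files. The deposited values describe each summit, its fold, its -log10 p-value and its -log10 q-value. The fold is fragments plus 1 over local background plus 1, and is therefore smaller than the plain ratio of fragments to background. The deposited score equals the -log10 q times 10, rounded down, and was not used further. Filters and the control used by the authors are not given in the sources used here.

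Fragments and background at each summit were solved from fold and -log10 p by the caller's Poisson formula, with whole fragments and a tolerance of 0.0005. This succeeded for 100% of peaks in both lists, though 4 PBS peaks, none at the 10 genes, had a second solution of nearly the same quality (error under 10 times as large). The true number was found for 100% of 2000 simulated peaks. The lowest background was 0.381 fragments in the vasostatin-2 library and 0.310 in the PBS library. Above it the background moved in steps that correspond to fragment lengths of 182.6 bp and 195.9 bp with an assumed window of 10000 bp, and floor and length gave the depth ratio of 1.32. Total fragments per library are not in the lists.

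The spans of genes were taken from RefSeq (GRCm38.p6), and starts and strands from its promoter table where it holds the gene. Peaks were shared with at least 1 bp of overlap (checked against bedtools 2.31.1 on simulated peaks). Python 3.11.15, pandas 2.3.3 and scipy 1.17.1 were used. Coordinates count from 1. No test between treatments was possible. All 10 genes are named with each of their peaks. Of the 60 other matrix genes those with an overlapping pair are named, and then the 4 with the highest fold in each list. The genes, lists, windows and alternatives were chosen with earlier results of these data known.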

Additional observations from a re-analysis of the deposited data

How the results depend on the processing

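With 1 library per treatment no replicate could be left out. No paired analysis was possible because each group has 1 library and the labels carry no replicate numbers. Of 92 recomputed values 63 stayed within 1.5 times the reported count, or for the Fn1 ratio inside its interval, and 29 did not. The values below are counts, given for the vasostatin-2 list first and the PBS list second. With q under 1e-05 the 10 genes had 0 and 0 genes with a peak, 0 and 0 peaks, 0 and 0 shared peaks and 0 and 0 peaks at a gene end, and 7 of the 60 other matrix genes had a vasostatin-2 peak. With at least 8 fragments there were 1 and 2 genes with a peak, 1 and 2 peaks, 0 and 0 shared peaks, and 0 and 1 peaks at a gene end. With fold at or above the median of its list there were 2 and 3 genes with a peak, 2 and 3 peaks, 1 vasostatin-2 peak at a gene end, and 11 and 13 other matrix genes with a peak. A window of 25 kb gave 2 and 2 shared peaks, the added pair being that near Eln. Reciprocal overlap of at least 50% gave 0 and 0 shared peaks, since the Fn1 peaks overlap by 86 bp. With a gene end taken as 3 kb, 5 PBS peaks were at one. These counts fall or grow with the strictness of the rule by its construction. The Fn1 ratio was 0.814 when divided by the ratio of the lowest backgrounds. No pair had 20 fragments together, so that setting gave no value. Peaks of 5 to 11 fragments limit every statement on these genes.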
